A study of Mus musculus with 5 samples.

Results

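Serpinb2 and Fosl1 activated basal keratinocytes were 140 cells among 6162 cells kept from 5 single-cell libraries of mouse dermis. Members were chosen by their counts of unique molecular identifiers (UMIs, single captured RNA molecules). A member held at least 10 UMIs of Krt5 and Krt14 together, making up at least 0.5% of its UMIs, no UMI of Ptprc, which encodes CD45, and fewer than 5 UMIs of Krt79, Defb6 and Cst6 together. It also held at least 2 UMIs of Serpinb2, Fosl1 and Ifi202b together, which are called the gate genes here. The 238 cells that met every other condition but held fewer than 2 gate gene UMIs are called other gated cells, giving 378 gated cells in all.

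The libraries came from C57BL/6 mice, from dermis that had been digested and sorted for live CD45+ cells, and were made with 10x Genomics droplets and 3'-end sequencing. The labels P45, P50, P63 and P80 are read here as mice 45, 50, 63 and 80 days old, and P50_Depil5D as P50 skin 5 days after depilation. The series followed the resting phase of the hair cycle, telogen. There was 1 library per label, so no difference between labels has a replicate check. The sources used here do not state the sex or number of mice per library. The members lack Ptprc by the rule, so they are cells that passed a CD45 sort without the transcript, and their share in a sample says nothing of their share in skin.

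Basal keratinocytes are the dividing layer of the epidermis and of the outer hair follicle, attached to the basement membrane by integrins in hemidesmosomes and filled with keratins 5 and 14. Serpinb2 encodes plasminogen activator inhibitor 2, a serpin made in keratinocytes under stress. Fosl1 encodes FRA-1, a subunit of the AP-1 transcription factor, and Ifi202b encodes an interferon-inducible DNA-binding protein. Keratinocytes at a wound edge are known to raise ligands of the epidermal growth factor (EGF) receptor and stress keratins, and cells of the resting hair follicle carry Sox9, Lhx2, Cd34 and Postn.

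Cell barcodes were shared between libraries, which bears on every result. Of all barcodes, 263 occurred in more than 1 library, and 136 of these had their most UMIs in P63 and 109 in P80. Copies of P63 barcodes held narrow shares of the UMIs of the fullest copy, with medians of 15.8% in P50, 18.7% in P80 and 16.5% in P50_Depil5D (5th to 95th percentiles from 14.5% to 19.7%). For P80 barcodes the medians were 35.1% in P50, 29.5% in P63 and 35.2% in P50_Depil5D, and the 95th percentiles in P50 and P50_Depil5D reached 76.2% and 84.7%. Among the gated cells, 24 members and 121 other gated cells had more UMIs in another library, including 41 of the 46 other gated cells of P50 and 38 of the 45 of P50_Depil5D. The main results are therefore given over all cells and again with each barcode counted once, in the library where it had most UMIs, a setting chosen after seeing the data. It left 116 members and 117 other gated cells. In the order P45, P50, P63, P80 and P50_Depil5D, which is kept throughout, the libraries held 13, 24, 36, 25 and 42 members over all cells, and 13, 17, 32, 19 and 35 with each barcode counted once. The other gated cells numbered 47, 46, 50, 50 and 45, and 47, 5, 37, 21 and 7 with each barcode counted once.

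**Figure D1:**
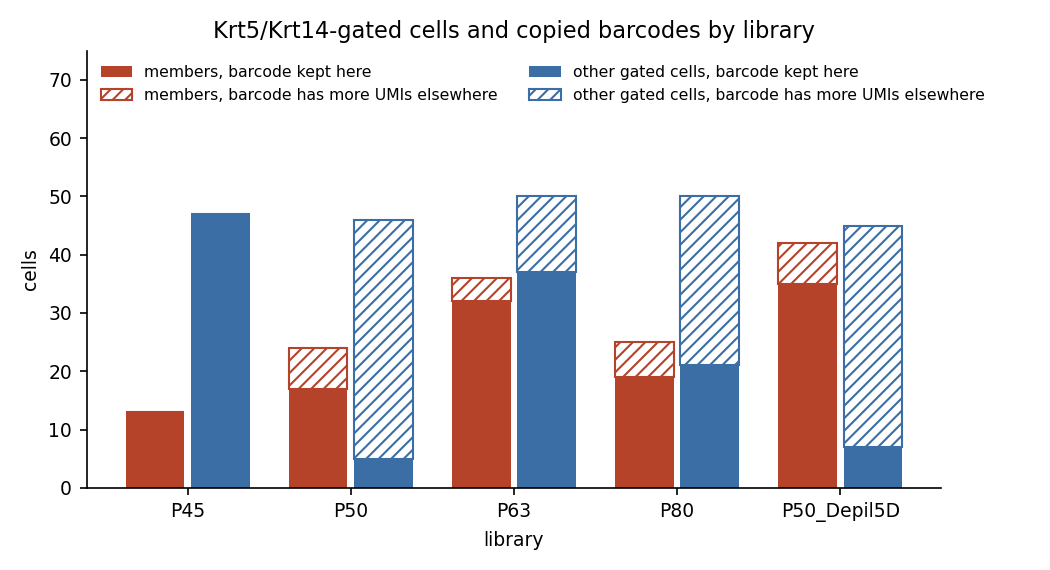
Number of gated cells in each of the 5 libraries, members and other gated cells as bars, with the hatched part being cells whose barcode has more UMIs in another library. Nearly all other gated cells of P50 (41 of 46) and P50_Depil5D (38 of 45) are hatched, and 24 of the 140 members are.

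The 250 bases before the start of Serpinb2 are shown because the gene defines the cells and AP-1, of which FRA-1 is a subunit, is known to bind TGANTCA, a motif that is its own reverse complement. The bases before the start of Gja1, which encodes the gap junction protein connexin 43 and was higher in members, are shown beside it. Both are from RefSeq on GRCm38.p6, on the plus strand, and capitals mark the motif. The Serpinb2 window is chr1:107511173-107511422, and the Gja1 window is chr10:56377050-56377299.
Serpinb2: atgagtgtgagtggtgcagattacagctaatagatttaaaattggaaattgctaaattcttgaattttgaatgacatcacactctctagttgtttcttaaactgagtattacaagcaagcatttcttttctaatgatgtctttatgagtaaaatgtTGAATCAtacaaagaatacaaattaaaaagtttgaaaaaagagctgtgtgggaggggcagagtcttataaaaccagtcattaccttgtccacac
Gja1: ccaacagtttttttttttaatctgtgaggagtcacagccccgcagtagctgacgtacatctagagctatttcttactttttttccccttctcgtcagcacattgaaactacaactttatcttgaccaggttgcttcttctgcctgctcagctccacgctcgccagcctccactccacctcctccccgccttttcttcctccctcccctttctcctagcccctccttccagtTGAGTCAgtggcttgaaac
The Serpinb2 window held the motif as TGAATCA, with 87 bases between it and the start, and the Gja1 window held it as TGAGTCA, with 12 bases between. Both distances are to the RefSeq start. GENCODE vM21 places the start of Gja1 further on, at 56377330, so its distance depends on the annotation. The motif occurred in the same window of 7.82% of the 27025 genes in the table. It was in 2 of the 10 windows matched for the 12 genes most raised in members, named further on, and in none of the 9 windows matched for the 12 most lowered. The Ifi202b window did not hold these letters. A match describes the letters only.

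The gate genes chose the members, so their levels are given as description with no test. Levels are UMIs scaled to a total of 1e+06 (CPM) in the summed cells of a group in a library. Serpinb2 (chr1:107511423-107535478, mm10) was at 683, 1633, 920, 824 and 2547 CPM in members and at 27.0, 76.6, 15.2, 53.6 and 77.8 CPM in other gated cells. The depilated library was the highest and P45 the lowest among members. Fosl1 (chr19:5447547-5455946) was at 201, 601, 215, 182 and 534 CPM in members, high in both P50 libraries and lower in the other 3. Ifi202b (chr1:173962568-173982744) was at 40.2, 448, 204, 97.0 and 751 CPM and varied most between libraries. Ifi202b has close relatives in the genome among which counting may split reads, so its value is uncertain.

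Most members were gated by Serpinb2, which had a UMI in 131 of 140, against 91 for Fosl1 and 71 for Ifi202b. Ifi202b was found in 1 of 13 members of P45 and in 30 of 42 of P50_Depil5D. The number of gate UMIs per member had a median of 5, 9, 4.5, 3 and 17.5 and a highest value of 16, 45, 29, 8 and 212. The cell with 212 held 17.4% of the gate UMIs of P50_Depil5D, and Serpinb2 stood at 2128 CPM without it. At the threshold, 27 members had exactly 2 gate UMIs (median 1820 UMIs in all), 53 cells just outside had 1 (median 2665 UMIs), and 81 members had 5 or more (median 6059 UMIs). As a background, none of 2480 cells with Ptprc and fewer than 10 Krt5 and Krt14 UMIs reached 2 gate UMIs, with an exact upper limit of 0.149% that covers counting error only. Their median depth was 2074.5 UMIs, and Serpinb2 stood at 2 CPM in them.

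Depth differed between members and other gated cells. The median UMIs per member were 4314, 4042.5, 4702.5, 2572 and 5879.5, against 3810, 1747.5, 2397, 2189.5 and 2086 in other gated cells. Members were deeper in all 5 libraries, with P45 and P80 closest. With each barcode counted once, the medians were 4314, 5903, 5457, 2872 and 7138 in members and 3810, 5173, 3231, 4195 and 3970 in others, and P80 members were then the shallower. 

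The members' share of the gated cells was 21.7% for P45 (exact binomial 95% interval 12.1 to 34.2), 34.3% for P50 (23.3 to 46.6), 41.9% for P63 (31.3 to 53.0), 33.3% for P80 (22.9 to 45.2) and 48.3% for P50_Depil5D (37.4 to 59.2). The intervals cover counting error only. P45 was lowest and P50_Depil5D highest, and only those of P45 and P50_Depil5D did not overlap. With each barcode counted once, the shares were 21.7%, 77.3%, 46.4%, 47.5% and 83.3%, so that P50 and P50_Depil5D stood highest. With cells thinned to 2000 UMIs before the rule was applied, over all barcodes, they were 13.3%, 45.7%, 30.1%, 28.3% and 53.4%, among the 1641, 487, 275, 153 and 486 cells deep enough. The ratio of P50_Depil5D to P50 was 1.41 (0.833 to 2.43), and 1.08 (0.588 to 2.05) with each barcode counted once, both intervals including no difference. Of all kept cells, members were 0.607%, 1.64%, 6.25%, 5.12% and 2.81%. On that denominator the ratio of P50_Depil5D to P50 was 1.71 (1.01 to 2.96), and 1.98 (1.08 to 3.78) with each barcode counted once, both intervals lying above 1. With thinning to 2000 UMIs it was 1.86 (1.07 to 3.33). The interval included 1 at a mitochondrial maximum of 5% (1.63, 0.939 to 2.91). It also did without cells that held 2 or more immune UMIs (1.32, 0.576 to 3.09).

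Each gate gene was next measured in gated cells split by the other 2 gate genes, which keeps the measured gene out of the split. The 3 genes are still those that chose the members, so the values are a description with no test. Serpinb2 stood at 1797 CPM in cells with at least 2 UMIs of Fosl1 and Ifi202b and at 275 CPM in the rest in P50. It stood at 928 against 227.4 CPM in P63 and at 2675 against 336 CPM in P50_Depil5D, and the other 2 libraries had fewer than 10 cells in the split. Fosl1 in cells gated on Serpinb2 and Ifi202b was at 158, 639, 172, 86.7 and 534 CPM against 22.7, 93.2, 55.9, 79.9 and 83.3 CPM, and P80 showed nearly no difference. Ifi202b was at 40.2, 445, 180, 76.6 and 753 CPM against 3.85, 28.3, 46.2, 26.1 and 17.03 CPM, with P80 the closest pair.

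The mean log2 difference, on CPM plus 10, was 2.53 for Serpinb2, 1.83 for Fosl1 and 2.65 for Ifi202b. Counting each barcode once, the differences were 2.32 over the 2 libraries that could be measured, and 1.33 and 1.70 over 3 (P45, P63 and P80). With cells thinned to 2000 UMIs before the split, the difference was 1.85 for Fosl1, higher in 4 of 4 libraries, and 2.10 for Ifi202b, higher in 4 of 5, and Serpinb2 could be measured in 1 library (2.70).

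**Figure D2:**
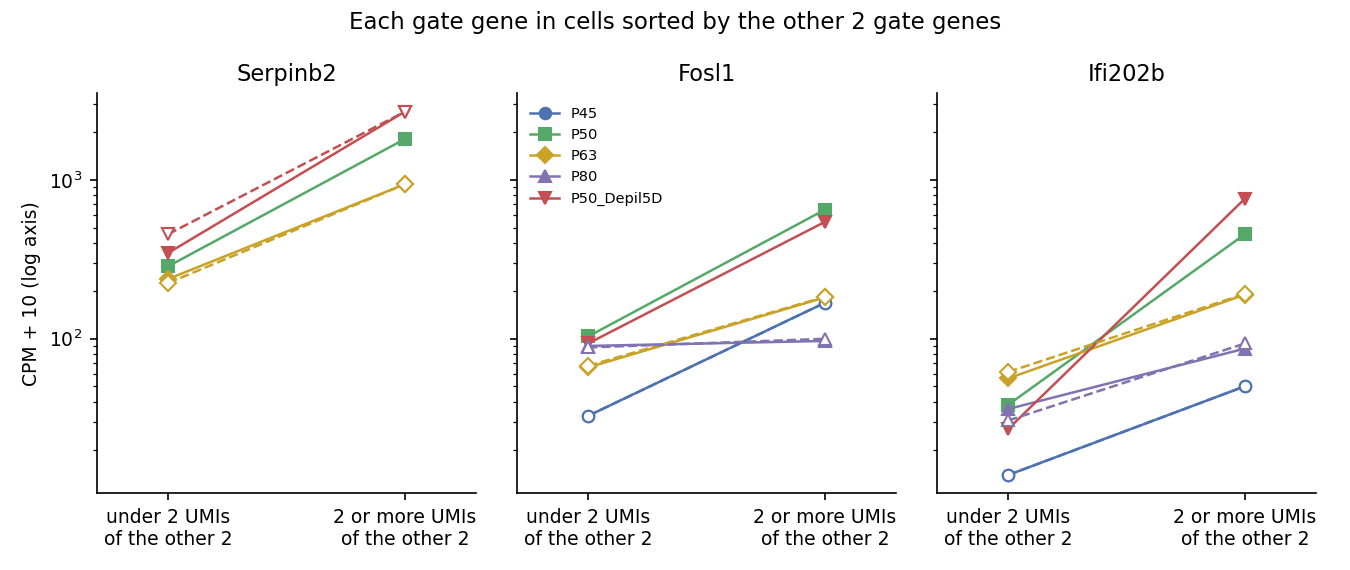
Level of each gate gene (CPM plus 10, log axis) in gated cells with fewer than 2 and with 2 or more UMIs of the other 2 gate genes, 1 line per library. Solid lines are all cells and dashed lines with open points count each barcode once. Lines rise from left to right, least for Fosl1 in P80 (79.9 to 86.7 CPM over all cells).

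The name was checked against markers of basal keratinocytes and of other cells. The summed level of basal markers was 17353, 23570, 17367, 17503 and 20303 CPM in members, against 13980, 15802, 16995, 14419 and 16843 CPM in other gated cells. It includes Krt5 and Krt14, which the rule used, so the sum cannot check the name by itself. Of the 5 other basal markers, only Itga6 was higher in the fit described below, with a median log2 fold of -0.04. With each barcode counted once, Itga6 was higher and Krt15 lower, with a median of -0.14. Hair follicle markers summed to 415, 237, 167, 364 and 101 CPM in members and to 1259, 1216, 1321, 1487 and 994 CPM in others, lower in members in all 5 libraries, also with each barcode counted once. Melanocyte markers were at 0 everywhere, and fibroblast, endothelial, mural and sebaceous sums were at most 66.9 CPM.

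Markers of 2 other cell states were present. Suprabasal markers, of keratinocytes that have left the basal layer, summed to 187, 271, 3029, 145 and 613 CPM in members. In others they summed to 401, 392, 643, 603 and 493 CPM, so members were lower in P45, P50 and P80. In P50_Depil5D, 64.6% of the member UMIs lay in 1 cell. Without the highest cell of each group, that library stood at 229 CPM in members and 401 CPM in others. P63 stood apart. There, 8 of 36 members had at least 10 such UMIs. Immune markers summed to 3187, 4645, 484, 1067 and 4464 CPM in members, against 944, 718, 547, 924 and 640 CPM in others, higher in members everywhere except P63. Without the highest cell of each group, P80 stood at 890 CPM in members and 932 CPM in others. In P45, 57.6% of the member UMIs lay in 1 cell, and members stood at 1464 CPM without it. With each barcode counted once the sums were 3187, 5152, 493, 1126 and 4621 CPM against 944, 1525, 447, 905 and 962 CPM, higher in members in all 5. At least 2 immune UMIs were found in 11 of 13, 12 of 24, 18 of 36, 16 of 25 and 27 of 42 members, and 20 members of P50_Depil5D had at least 10. In the fit described next, 5 of 8 immune markers tested were higher in members (Fcer1g, Tyrobp, Cd3g, Cd3d and Cd3e), and 2 of 7 were (Fcer1g and Cd3g) with each barcode counted once. For all genes tested the shares higher were 6.24% and 3.57%. Doublets were not removed, and the part of immune transcripts in the results was not tested.

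Members were compared with other gated cells in summed counts per library, with edgeR's quasi-likelihood test, the library as a block and Benjamini-Hochberg adjustment over all genes tested. The cells were chosen with these data in view, so the test bears only on genes the gate did not count and is no evidence that the members form a type. The 5 libraries, of different ages and treatment, serve as the replicates. Gated cells of all libraries but P45 share barcodes, so p-values over all cells are too small. Statements below on overlap between the groups are over all cells and carry the same limit. Of the other gated cells, 41 of 46 in P50 and 38 of 45 in P50_Depil5D were copies of barcodes fuller elsewhere. Their 5 values are therefore not from 5 separate sets of cells. Of 2901 genes tested, 299 differed at an adjusted p under 0.05, or 10.3%, with 181 (6.24%) higher in members and 118 (4.07%) lower. With each barcode counted once, the 3 libraries with at least 10 cells of each kind (P45, P63 and P80) gave 151 of 2240 (6.74%), with 80 (3.57%) higher and 71 (3.17%) lower. The calls shared 115 genes, 38.5% of the first set and 76.2% of the second, all in the same direction.

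Itga6 and Sfn were higher in members. Sfn (chr4:133600556-133602168) encodes 14-3-3 sigma, a cell cycle brake of stratified epithelia. It was at 3829, 5524, 4099.7, 5721 and 5194 CPM in members and at 1409.5, 2355, 1873, 2739 and 2343 CPM in others, with no overlap between the groups. The log2 fold was 1.23 ± 0.10 (SE, 5 libraries; edgeR adjusted p = 1.46e-09), and 1.21 ± 0.12 (edgeR adjusted p = 1.44e-11) with each barcode counted once. Without cells that held 2 or more immune UMIs it was 1.12 (edgeR adjusted p = 0.00204), and without any shared barcode 1.14 (edgeR adjusted p = 0.00109).

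Itga6 (chr2:71745616-71858416), the integrin subunit of hemidesmosomes, was at 415, 329.9, 554, 569.7 and 472 CPM in members and 200.3, 163, 339, 275 and 251 CPM in others. Each library's members were above its other gated cells, though the lowest members and the highest others overlapped across libraries. The log2 fold was 0.96 ± 0.18 (edgeR adjusted p = 0.000476), and 0.82 ± 0.23 (0.0127) with each barcode counted once. It did not pass without any shared barcode (0.59, edgeR adjusted p = 0.622) or without cells that held 2 or more immune UMIs (1.08, 0.0763). Of 11 hemidesmosome and integrin genes tested, 2 were higher, Itga6 among them, and Cd151 was lower, with a median log2 fold of 0.51 against 0.01 over all genes tested. Itga6 alone of 10 passed when each barcode was counted once, with a median of 0.21. Beside these counts, 6.24% of all genes tested were higher and 4.07% lower, and 3.57% and 3.17% with each barcode counted once. Col17a1 did not pass (log2 fold -0.04, edgeR adjusted p = 0.917).

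Of 11 genes for EGF family ligands and receptors, 4 had enough UMIs to test, and 3 of the 4 were higher over all cells (Epgn, Areg and Hbegf), with a median log2 fold of 2.36. Among all genes tested over all cells, 6.24% were higher. Only Hbegf could be tested with each barcode counted once. Hbegf, heparin-binding EGF-like growth factor, was at 187, 415, 204, 169.7 and 302 CPM in members and 92.4, 38.3, 30.4, 60.3 and 86.5 CPM in others, with no overlap. For Hbegf the log2 fold was 2.02 ± 0.29 (edgeR adjusted p = 2.35e-05), 1.77 ± 0.37 (0.000425) with each barcode counted once, and 1.48 (0.213) without any shared barcode. Without cells that held 2 or more immune UMIs it was 2.78 (edgeR adjusted p = 0.00544).

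Epgn (chr5:91027464-91035215), which encodes epigen, was at 107, 25.4, 80.7, 48.5 and 211 CPM in members and 19.3, 28.7, 0, 20.1 and 8.65 CPM in others. It was higher in 4 of 5 libraries, with P50 the exception, and the log2 fold was 2.69 ± 0.51 (edgeR adjusted p = 0.00149). Areg, amphiregulin, was uneven, at 40.2, 84.6, 5.38, 0 and 321 CPM in members and at 19.3, 0, 10.1, 0 and 8.65 CPM in others. Its log2 fold was 2.93 ± 0.65 (edgeR adjusted p = 0.00968), and DESeq2 did not call it (adjusted p = 0.129).

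**Figure D3:**
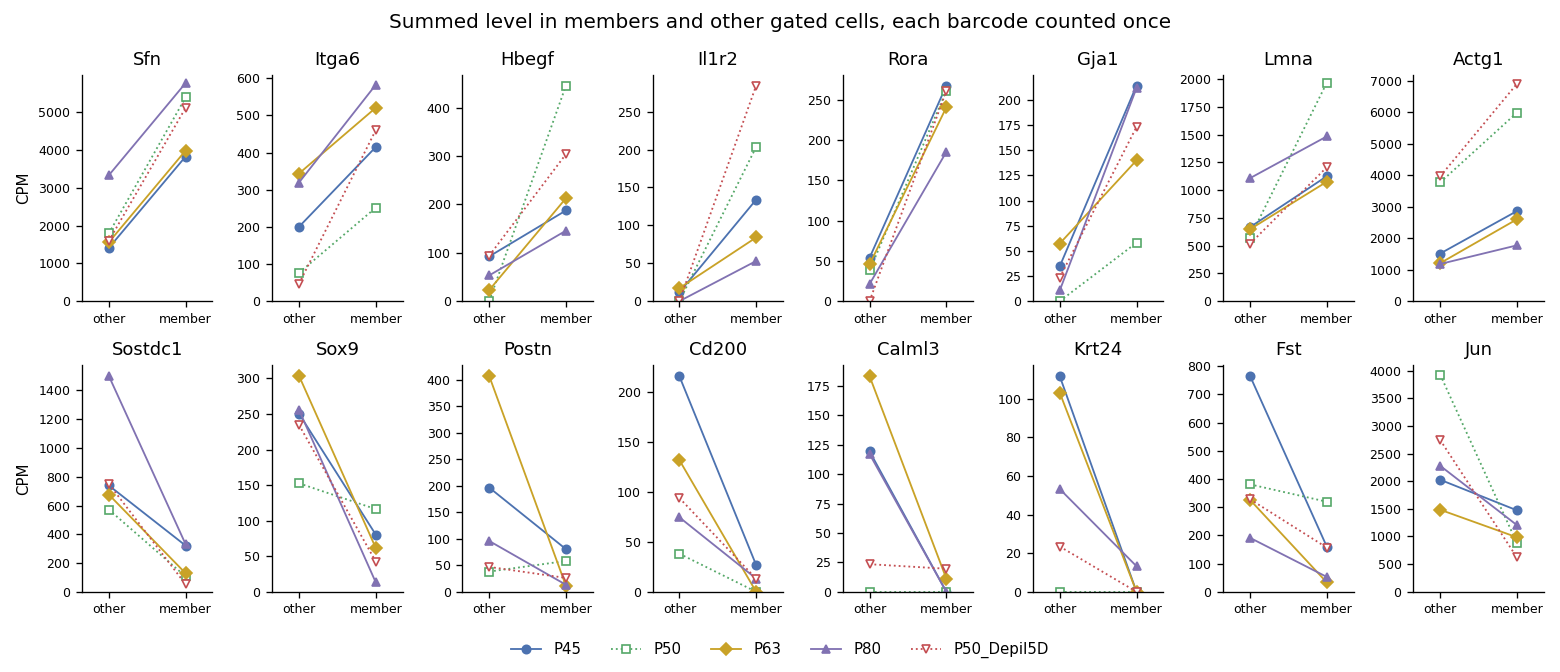
Levels (CPM) of 16 genes in members and other gated cells of each library, with each barcode counted once. Open dotted points are libraries with fewer than 10 other gated cells (5 in P50 and 7 in P50_Depil5D). The upper 8 genes lie higher in members and the lower 8 lie lower in most libraries.

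The 12 genes most raised, by the naming rule, were Il1r2, Sema3d, Adm, Rgs1, Rora, Lypd3, Cux1, Sowahc, Gja1, Thy1, Igfbp3 and Msmo1. Il1r2, which encodes the decoy receptor for interleukin 1, was at 134, 178, 80.7, 60.6 and 277 CPM in members and at 11.6, 19.1, 15.2, 0 and 8.65 CPM in others, with no overlap. The Il1r2 log2 fold was 3.57 ± 0.41 (edgeR adjusted p = 1.01e-06), and 3.05 ± 0.70 (0.00161) with each barcode counted once. Il1r2 has no value without cells that held 2 or more immune UMIs or without any shared barcode. Rora, a nuclear receptor, was at 268, 254, 242, 206 and 252 CPM against 53.9, 57.4, 45.5, 20.1 and 51.9 CPM, the most even of these genes over libraries. Its log2 fold was 2.44 ± 0.26 (edgeR adjusted p = 5.44e-07), and 2.45 ± 0.35 (5.02e-07) with each barcode counted once. Without cells that held 2 or more immune UMIs it was 1.80 (edgeR adjusted p = 0.0956).

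Gja1 was at 214, 59.2, 135, 206 and 173 CPM in members and 34.7, 0, 50.6, 33.5 and 43.2 CPM in others. P50 was low among members but still above every other gated sum. The log2 fold was 2.22 ± 0.33 (edgeR adjusted p = 3.17e-05), and 2.25 ± 0.39 (2.31e-05) with each barcode counted once. Gja1 also has no value without cells that held 2 or more immune UMIs or without any shared barcode. Lypd3, a surface protein of migrating and suprabasal keratinocytes, was at 80.3, 482, 209.8, 109 and 349 CPM against 19.3, 28.7, 60.7, 33.5 and 60.5 CPM (log2 fold 2.43 ± 0.31, edgeR adjusted p = 4.16e-06, and 1.85 ± 0.39, 0.000504, with each barcode counted once). Thy1, Adm and Sowahc were also called in both fits. Rgs1 had a UMI in 8 of 24 members of P50 and 22 of 42 of P50_Depil5D. It did not pass without the replicate block (log2 fold 3.03, edgeR adjusted p = 0.107). Whether the UMIs of Thy1 and Rgs1 belong to the immune transcripts found in members was not tested. Sema3d, Rgs1, Cux1 and Msmo1 could not be tested with each barcode counted once, and Igfbp3 did not pass there (log2 fold 1.21, edgeR adjusted p = 0.175, against 2.15 and 0.0496 over all cells).

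Of the actin and adhesion genes, 5 of 11 tested were higher (Lmna, Tpm1, Pfn1, Actg1 and Cfl1) with none lower, and 2 of 11 (Lmna and Actg1) with each barcode counted once. Over all genes tested, 6.24% were higher, and 3.57% with each barcode counted once. Lmna, which encodes lamin A and C of the nuclear envelope, was at 1125, 1895, 1071, 1455 and 1214 CPM in members and 666, 775, 678, 911 and 666 CPM in others, with no overlap (log2 fold 0.88 ± 0.14, edgeR adjusted p = 9.97e-05, and 0.65 ± 0.15, 0.00237, with each barcode counted once). Actg1, gamma actin, was at 2865, 5558, 2599, 1999.95 and 6766 CPM in members and 1514, 2182, 1260.2, 1393 and 2482 CPM in others, so the groups overlapped across libraries. The Actg1 log2 fold was 1.098 ± 0.13 (edgeR adjusted p = 3.44e-06), and with each barcode counted once it was 0.91 ± 0.13 (2.92e-07). Actg1 did not pass without any shared barcode (0.76, edgeR adjusted p = 0.0514) or without the replicate block (1.22, 0.083). The wound keratin Krt16 was at 0, 110.0, 16.1, 48.5 and 211 CPM in members against 0, 9.57, 5.06, 6.7 and 8.65 CPM in others, highest in the P50 libraries. The fold of Krt16, on the log2 scale, was 3.40 ± 0.55 (edgeR adjusted p = 0.00013), and it could not be tested with each barcode counted once.

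Hair follicle genes were lower in members. Of 11 tested, 6 were lower and none higher, with a median log2 fold of -2.28. Counting each barcode once, 8 of 10 were lower, with a median of -2.50. The shares lower over all genes tested were 4.07%, and 3.17% with each barcode counted once. Sostdc1, an inhibitor of BMP and WNT signalling in the follicle, was at 321, 178, 151, 327 and 66 CPM in members and at 739, 1024, 724, 1266 and 839 CPM in others, with no overlap. Its log2 fold was -2.28 ± 0.25 (edgeR adjusted p = 1.25e-05), and -1.93 ± 0.22 (8.8e-10) with each barcode counted once. Sox9 was at 80.3, 102, 59.2, 12.1 and 40.9 CPM against 250.3, 134, 278, 241 and 242 CPM, also with no overlap. For Sox9 it was -1.97 ± 0.32 (edgeR adjusted p = 0.000196), and -2.33 ± 0.36 (2.34e-06) with each barcode counted once.

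Postn, a matrix protein gene, was at 80.3, 50.8, 10.8, 12.1 and 25.2 CPM in members and 196, 144, 369, 141 and 112 CPM in others, with no overlap. The Postn log2 fold was -2.52 ± 0.42 (edgeR adjusted p = 0.000671), and -3.19 ± 0.48 (1.06e-05) with each barcode counted once. Cd200, a surface protein of follicle stem cells, was at 26.8, 0, 0, 12.1 and 12.6 CPM in members and 216, 95.7, 121, 93.8 and 69.2 CPM in others. The log2 fold was -3.42 ± 0.47 (edgeR adjusted p = 1.25e-05), and 3 UMIs against 86 remained in the 3 libraries fitted with each barcode counted once, 17.8-fold lower (5.91 to 88.2). Cd34, the bulge stem cell marker of the mouse, had 1 UMI in all members and 47 in all others, a 44.3-fold difference (exact interval 7.57 to 1787). It had 0 and 42 UMIs in the 3 libraries fitted with each barcode counted once, at least 8.71-fold lower.

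The 12 genes most lowered, by the same rule, were Krt24, Cd34, Cd200, Calml3, Lhx2, Ccl2, Fgfr1, Tgm5, Timp2, Alcam, Kazald1 and Tm4sf1. Of these, 10 were called lower in both fits, the exceptions being Kazald1 (edgeR adjusted p = 0.0659 with each barcode counted once) and Tm4sf1, which could not be tested there. Krt24 had 1 UMI in members and 62 in others, a 58.4-fold difference (10.1 to 2345). Calml3, a calmodulin-like protein gene of epithelia, was at 0, 0, 10.8, 0 and 18.9 CPM in members and 119, 76.6, 177, 121 and 69.2 CPM in others, with a log2 fold of -3.39 ± 0.48 (edgeR adjusted p = 2.1e-05, and 1.27e-07 with each barcode counted once).

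**Figure D4:**
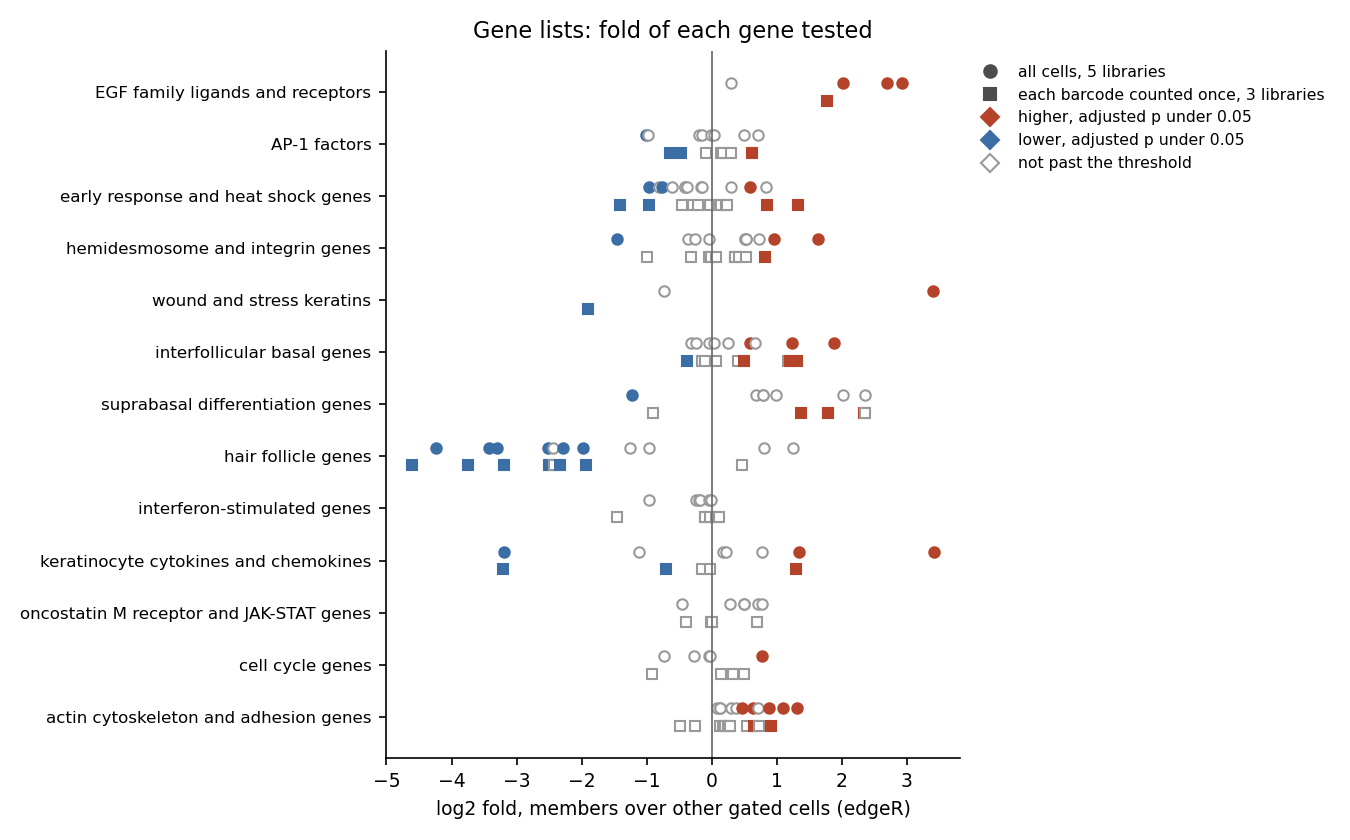
Log2 fold of members over other gated cells for the tested genes of each list, 1 point per gene, circles over all cells and squares with each barcode counted once. Genes without a member UMI in the libraries of the second fit, such as Cd34, are not drawn there. Most hair follicle genes lie below 0, with a median of -2.28 over all cells, and the 4 EGF family genes tested have a median of 2.36.

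Fosl1 chose the cells, but the other AP-1 genes were not higher with it. Of 8 tested over all cells, none was higher and Jun was lower, with a median log2 fold of -0.08. Jun was at 1473, 948, 1017, 1164 and 622 CPM in members and 2026, 2412, 1544, 2149.8 and 2335 CPM in others, with no overlap. Its log2 fold was -1.01 ± 0.16 (edgeR adjusted p = 0.000519), and -0.63 ± 0.13 (0.000549) with each barcode counted once. In that setting Fos was lower too (-0.47, edgeR adjusted p = 0.00186) and Atf3 was higher (0.62, 0.00138), while neither passed over all cells (-0.98, 0.207, and -0.01, 0.989). Of 12 early response and heat shock genes tested over all cells, 1 was higher (Nr4a1) and 2 were lower, beside 6.24% and 4.07% over all genes. Without TMM scaling none was higher and 3 were lower. When each barcode was counted once, 2 were higher (Dnajb1 and Nr4a1) and 2 lower (Hspa1b and Ier3).

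Differentiation genes differed between the fits. The fit with each barcode counted once also left out P50 and P50_Depil5D, and the part of each change was not tested. Over all cells, none of 7 suprabasal genes tested was higher and 1 (Sbsn) was lower. Counting each barcode once, 3 of 5 were higher (Krt10, Krt1 and Dsg1a), beside 3.57% of all genes tested. Krt10, the keratin of the spinous layer, was at 93.7, 84.6, 1269.7, 60.6 and 277 CPM in members and at 100.1, 86.1, 299, 121 and 182 CPM in others, and P63 members stood apart. The log2 fold was 0.80 (edgeR adjusted p = 0.233) over all cells and 1.38 (0.00148) with each barcode counted once, where 2 of 3 libraries were higher. Krt17 was lower in that setting (-1.90, 0.00041) and did not pass over all cells (-0.73, 0.608).

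The study's topic is oncostatin M and JAK-STAT5, and 17 genes of that receptor and pathway were examined. Only 6 had enough UMIs to test, and none passed, with a median log2 fold of 0.49 (4 tested, none past the threshold, median -0.00 with each barcode counted once). Socs3, a feedback inhibitor of STAT signalling, was at 214, 152, 495, 618 and 167 CPM in members and 393, 526, 389.7, 529 and 311 CPM in others (log2 fold -0.46, edgeR adjusted p = 0.264). Pim1, a kinase gene and STAT target, was at 93.7, 186, 113, 109 and 487 CPM against 88.6, 134, 137, 167 and 121 CPM (0.49, 0.398), and only P50_Depil5D stood apart. Osmr and Il6st, the receptor chains, were too low to test. None of 6 interferon-stimulated genes tested passed in either fit. Over all genes tested, 10.3% passed over all cells, and 6.74% with each barcode counted once. With so few genes tested in each list, none passing says little about either list. Among 7 cytokine genes tested, the interleukin 1 receptor antagonist gene Il1rn was higher in both fits (log2 fold 1.34 ± 0.31, edgeR adjusted p = 0.00443, and 1.297 ± 0.34, 0.00705).

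Members were also set against 2 other kinds of Krt5 and Krt14 cells, 100 upper follicle cells, which lay outside the gate with at least 5 UMIs of Krt79, Defb6 and Cst6 and fewer than 2 of the gate genes, and 117 of the other gated cells with at least 2 Sostdc1 UMIs. Both groups were chosen by measured genes. Those of the member and upper follicle rules are left out of the counts, but Sostdc1 is not. A difference in Sostdc1 against the Sostdc1 cells therefore follows from how they were chosen. Against upper follicle cells, 434 of 3303 genes (13.1%) differed by edgeR, 256 (7.75%) higher and 178 (5.39%) lower. Counting each barcode once gave 193 of 2631 (7.34%), 100 (3.8%) higher and 93 (3.53%) lower. Against Sostdc1 cells, 305 of 2471 (12.3%) differed, 170 (6.88%) higher and 135 (5.46%) lower, and with each barcode counted once there were 175 of 1788 (9.79%), 99 (5.54%) higher and 76 (4.25%) lower.

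Il1r2, Igfbp3 and Calm5 were among the leading genes higher in members in both of these comparisons, which share the members. Il1r2 had 139 UMIs in members and none in either group, at least 50.3-fold higher than in upper follicle cells and at least 32.6-fold higher than in Sostdc1 cells. Igfbp3, an insulin-like growth factor binding protein gene, had 252 UMIs in members, 1 in upper follicle cells (273-fold, exact interval 48.6 to 10838) and 3 in Sostdc1 cells (59.0-fold, 19.97 to 288). Cd200 was lower against both, with log2 folds of -4.30 and -3.50. Foxc1, a transcription factor gene of the upper follicle, had 3 UMIs in members and 74 in upper follicle cells (22.7-fold, 7.49 to 113). Not every gene lowered against other gated cells was lower here. Cd34 had 1 UMI in members and 3 in upper follicle cells (2.77-fold, 0.222 to 145), and Krt24 had 1 and 2 (1.84-fold, 0.096 to 109). Tgm5 had 4 and 1. Low levels of these 3 genes did not set members apart from upper follicle cells.

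Within the members, P50_Depil5D (42 cells) was compared with P50 (24 cells). With 1 library each there is no test, and intervals of ratios cover counting error only. A gene was counted as different at 2-fold on CPM plus 10, with at least 50 CPM in the higher library. Of 10456 genes with a UMI, 178 (1.7%) were higher after depilation and 147 (1.41%) lower, and with each barcode counted once 206 (1.99%) and 133 (1.29%) of 10332. Only 2637 of them reached 50 CPM in the higher library and could be counted, and 2444 with each barcode counted once. List counts given at 50 CPM are to be set beside these smaller numbers. Most genes rest on few UMIs, and the summed immune markers were alike, at 4464 and 4645 CPM.

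Among EGF ligands, Epgn was at 211 CPM in P50_Depil5D and 25.4 CPM in P50, a ratio of 8.30 (2.72 to 41.3). It had a UMI in 22 of 42 depilated members, but 28 of its 67 UMIs lay in 1 cell, and after each cell was thinned to 2000 UMIs the log2 ratio on CPM plus 10 was 0.65. With each barcode counted once the ratio of Epgn was 7.31 (2.39 to 36.4). Areg was at 321 against 84.6 CPM (3.79, 1.98 to 8.14), while Hbegf was at 302 against 415 CPM (0.73, 0.51 to 1.05). A UMI of Areg was found in 15 of 42 members of P50_Depil5D and in 3 of 24 of P50. Counting each barcode once, the ratios were 3.44 (1.80 to 7.39) for Areg and 0.68 (0.47 to 0.99) for Hbegf. Of the 5 family genes at 50 CPM, 2 were counted higher and none lower. Pim1 was at 487 against 186 CPM (2.62, 1.67 to 4.30) and was the only 1 of 6 pathway genes at 50 CPM to differ by 2-fold. Itgb1, an integrin subunit gene, was at 204 against 84.6 CPM (2.42, 1.23 to 5.27), and Igfbp3 at 509 against 220.0 CPM (2.32, 1.52 to 3.65). Of the Igfbp3 UMIs of P50_Depil5D, 38.9% lay in 1 cell, and without it the level was 329.8 CPM. When each barcode was counted once, the ratios were 2.91 for Pim1, 2.32 for Itgb1 and 2.47 for Igfbp3.

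Serpinb2 had a ratio of 1.56 (1.33 to 1.83), Ifi202b 1.68 (1.24 to 2.30) and Fosl1 0.89 (0.67 to 1.19), and Krt14 and Krt5 had ratios of 0.89 and 0.95. Krt16 had a ratio of 1.92 (1.05 to 3.78). Krt10 was at 277 against 84.6 CPM, and at 79.5 CPM in P50_Depil5D without its highest cell, near P50. Mt4, with 41 UMIs against 0 and at least 5.08-fold higher, had 80.5% of its UMIs in 1 cell. Sprr1a, a cornified envelope precursor gene, was lower at 34.6 against 178 CPM (0.19, 0.08 to 0.42), as was Aldh3a1, an aldehyde dehydrogenase gene, at 31.4 against 152 CPM (0.21). The 21 UMIs of Sprr1a in P50 lay in 4 of 24 members, with 8 in 1 cell. Hist1h2ap, a histone gene, was at 12.6 against 186 CPM, with its 22 UMIs in P50 in 2 cells. Sostdc1 was at 66 against 178 CPM (0.37). Once-counted barcodes gave ratios of 1.67 for Serpinb2, 1.67 for Ifi202b, 0.87 for Fosl1, 0.18 for Sprr1a and 0.16 for Aldh3a1, and Sostdc1 had 0.49 (0.21 to 1.17). Among other gated cells the same contrast could hardly be made, since 38 of 45 and 41 of 46 of them were copies of barcodes fuller elsewhere.

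**Figure D5:**
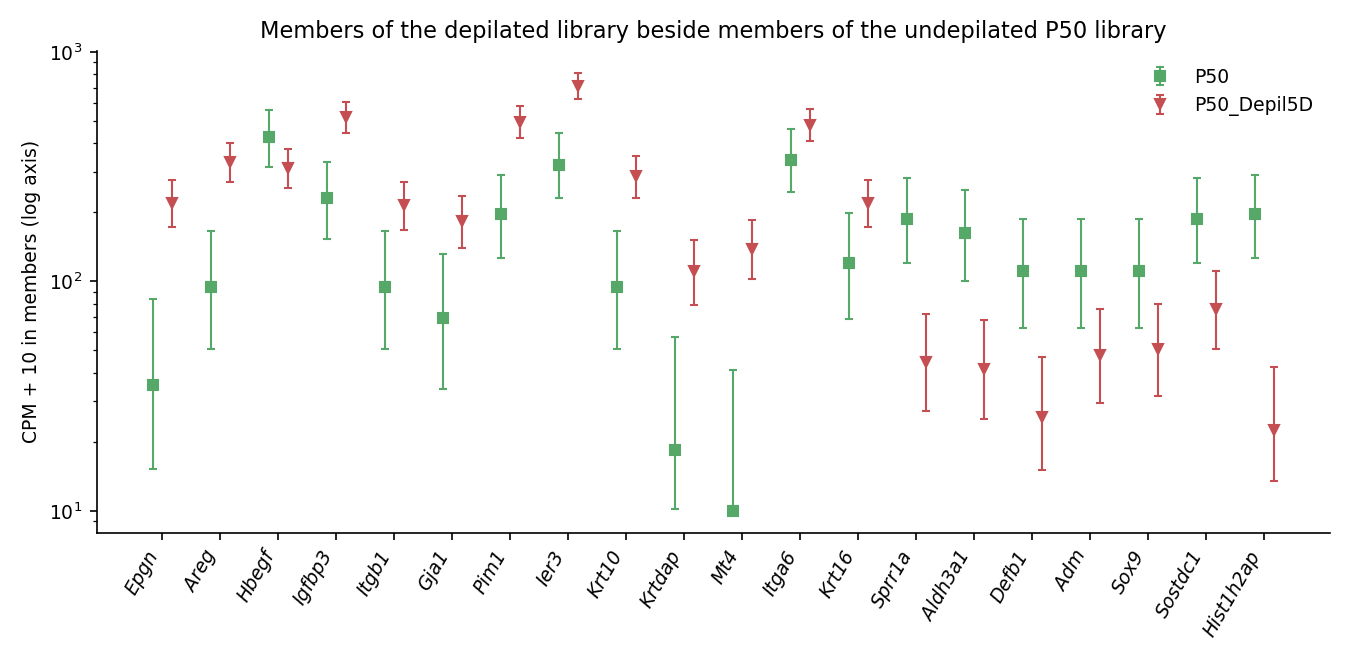
Levels (CPM plus 10, log axis) of 20 genes in the members of P50 (squares) and P50_Depil5D (triangles), with exact Poisson 95% intervals that cover counting error only. The intervals of Epgn and Areg do not overlap between the libraries, and those of Hbegf and Krt16 do.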

How the data were processed

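Whole-number UMI counts per gene and cell were deposited, and per the submitters' processing notes mm10 and Seurat were used, with no version or role. The cell-calling rule is not stated. Of 6223 barcodes, 6162 passed limits of 200 or more detected genes and a mitochondrial share of 10% or less. Library totals ran from 1032621 to 7491878 UMIs, which sets the precision of each value. Doublets were not removed. Counts were summed per library and class, with at least 10 cells a sum, and genes with at least 10 UMIs in at least 2 sums were tested by edgeR 4.0.16 (R 4.3.3) after TMM scaling. The replicate block is the library, since both sums of a pair come from 1 library. DESeq2 1.42.0 was an alternative. Gate genes were left out of the calls. Exact intervals (95%) used scipy 1.17.1, and gene positions are from GENCODE vM21, which held 27645 of 27998 identifiers. Fitting was tested on simulated data.

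Named genes were the marker genes, the 12 largest folds past the threshold in each direction that were alike in every library at 50 CPM or more, up to 4 of each gene list, the 8 largest ratios each way after depilation, and the 5 largest folds against each other cell group. Gene models and ribosomal and mitochondrial genes were left out, and some genes the rule names are not reported here. The members and lists were chosen with earlier results of these data known. Nothing shows that libraries came from separate animals, so p-values measure the spread between these libraries. A fold against a group with no UMI is a bound set at 3 UMIs over the group.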

Additional observations from a re-analysis of the deposited data

How the results depend on the processing

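The 299 genes called between members and other gated cells were 207 without the replicate block, 117 by DESeq2, 118 (of 935 tested) with at least 20 UMIs in 4 sums, 168 with cells thinned to 2000 UMIs, 35 (of 911) without cells holding 2 or more immune UMIs and 26 (of 857) without shared barcodes. Leaving out 1 library gave 194 (without P50_Depil5D) to 272 (without P45), with 195 without P50. With each barcode counted once, chosen after seeing the data, 151 were called, 76 with thinning, 184 with sums of 5 or more cells and 36 without the replicate block, and leaving out a library gave 64 (without P63) to 138 (without P80), with 97 without P45. Fewer genes, cells or libraries entered several of these fits, and the cause of each change was not tested. Against upper follicle cells, the 434 calls were 193 with each barcode counted once, 361 without the replicate block, and 272 (without P50_Depil5D) to 363 (without P80) without 1 library. Against Sostdc1 cells, the 305 were 175, 181 and 194 (without P50_Depil5D) to 314 (without P45), with 197 without P50 and 202 without P63. Neither group could be fitted without shared barcodes.

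The share of members in gated cells was 77.3% in P50 and 83.3% in P50_Depil5D both without shared barcodes and with each barcode counted once, and 65.4% and 72.5% with thinning added. It was 28.8% in P50_Depil5D without cells holding 2 or more immune UMIs. For P63 it was 30.1% thinned and 30.9% thinned with each barcode counted once, and for P80 21.9% with 3 or more gate UMIs, 46.2% without shared barcodes and 47.5% with each barcode counted once. The 325 genes past 2-fold after depilation were 1018 with thinning, and 1231 with thinning and each barcode counted once. They were 1370 without cells holding 2 or more immune UMIs. Signs turned for H2-D1 (log2 fold 0.56 when thinned) and Cdkn1a (-0.57 without shared barcodes). After depilation they turned for Bcl2a1b (-0.0900 thinned with each barcode counted once) and Defb1 (2.54 without cells holding 2 or more immune UMIs). Depth limits the low genes: Epgn, Areg and Krt16 could not be tested with each barcode counted once.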
